A study of Mus musculus with 44 samples.

Results

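The potassium channel genes were taken as all genes whose symbol starts with Kcn in the annotation of either array, without Kcnj9, Kcnj10, Kcnj13 and Kcne2, which gave 81 of the 18101 genes with values on the arrays. On the Affymetrix arrays 79 of these genes had values, at 157 probesets, and 98 probesets of 53 genes were bright enough to be tested. On the Illumina arrays 61 probes of 47 genes were tested, and 45 genes had values on both array types. The remaining 26 genes of the Affymetrix arrays had only probesets below the filter on mean value, 59 probesets in all counting those of genes with a brighter one. They were Kcne1, Kcne1l, Kcne3, Kcne4, Kcng4, Kcnh5, Kcnh7, Kcnh8, Kcnj1, Kcnj2, Kcnj5, Kcnj12, Kcnj15, Kcnk4, Kcnk5, Kcnk6, Kcnk7, Kcnk10, Kcnk15, Kcnk16, Kcnmb1, Kcnmb4os1, Kcnn3, Kcnn4, Kcnq1 and Kcnv2. A further 3 probesets, of Kcnc4, Kcnh3 and Kcnj14, were listed without values.

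The study asked how striatal gene expression differs between 2 inbred mouse strains, C57BL/6J (B6) and DBA/2J (D2), in adult naive animals. Total RNA of the striatum of 20 mice was measured on Affymetrix MOE430 2.0 arrays, from 5 B6 females, 5 B6 males, 5 D2 females and 5 D2 males. Striatal RNA of 24 other mice, all male, was measured on Illumina MouseRef-8 arrays, 12 from B6 and 12 from D2, with 1 array for each mouse on both array types. No mouse carried a transgene or received a treatment, and the labels give the age only as adult. The Affymetrix values are log2 values from RMA, a procedure that corrects background, equalizes arrays and combines the probes of a probeset. The Illumina values are on a variance-stabilized scale (VST), nearly log2 at high signals and compressed at low ones, and no folds are given for them. All differences are B6 minus D2.

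Potassium channels let potassium ions leave or enter a cell along the electrochemical gradient and in this way set the resting potential and end the action potential. The voltage-gated (Kv) family opens on depolarization, the inward rectifiers conduct best near rest, the 2-pore channels carry leak currents, and the calcium- or sodium-activated channels follow spikes and calcium entry. Auxiliary subunits bind to the pore-forming ones and change their gating or trafficking. Medium spiny neurons, the main neurons of the striatum, are known for a very negative resting potential held by inward rectifiers and for A-type Kv currents that delay the first spike.

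The Illumina probes behind the calls are single oligonucleotides of 50 bases, and the first 30 bases of each are shown so that the target of the value can be traced. The set holds the 4 probes that were called below and the Kcnq5 probe, since Kcnq5 had the largest difference of the gene family on the other array type. All are written from 5′ to 3′ and no base is marked by capitals.
Kcnf1 ILMN_2657243: cagctggagcctggggctgctaatccacaa
Kcnh1 ILMN_2668260: catatgagcttctctccgtctccctcgact
Kcnu1 ILMN_2946288: ttgtgccagttgcttagtggtcagcgagtt
Kcnn1 ILMN_2664556: gaaacatggacccatcctgccccttctgag
Kcnq5 ILMN_2798606: gtgccgaagagacagaaacagatacttttg
Of their 50 bases 25 were G or C in Kcnf1, 26 in Kcnh1 and 29 in Kcnu1, Kcnn1 and Kcnq5, within the range of 19 to 31 over all 61 potassium channel probes. The 61 probes were all different sequences. In the RefSeq annotation of the mouse Kcnh1 and Kcnq5 lie on chromosome 1, Kcnn1 and Kcnu1 on chromosome 8 and Kcnf1 on chromosome 12, and the 81 genes are spread over 19 chromosomes.

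One Affymetrix array labelled B6 stood apart, and 4 Illumina arrays of D2 were dim. The array of B6 female 64 lay between the strains at 115 probesets of other genes that differ by at least 1.5 between strains: on a scale with the D2 mean at 0 and the B6 mean at 1, its median was 0.512, against 0.991 to 1.01 for the other B6 arrays and -0.0183 to 0.0322 for the D2 arrays. The array of B6 male 67 had the lowest mean of the 98 potassium channel probesets, 8.10, and the lowest mean of the medium spiny neuron markers of all 20 arrays, 11.05, with the highest means of the oligodendrocyte markers (12.10), astrocyte markers (10.41) and choroid plexus markers (10.12). Mean bead signals before normalization were 1223 to 1822 on the B6 Illumina arrays and 599 to 1849 on the D2 arrays, where arrays 3, 5, 6 and 12 were dimmest (784, 985, 599 and 883). Medium spiny neuron markers were bright in both strains, with 8 of 10 tested on the Affymetrix arrays at a list mean of 11.1 to 12.0 in B6 and 11.1 to 11.7 in D2. None of these 8, nor of the 7 tested on the Illumina arrays, was called between strains, but some came close. Drd2 was higher in B6 by 0.40 on the Illumina arrays (limma adjusted p = 0.0102) and by 0.35 on the Affymetrix arrays (adjusted p = 0.0769). On the Affymetrix arrays Penk had a difference of 0.25 (adjusted p = 0.0440) and Rgs9 one of -0.48 (adjusted p = 0.0231).

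On the Affymetrix arrays 3 potassium channel genes differed between strains. Of the 98 probesets tested, 3 (3.06%) were called at an adjusted p under 0.01, against 9.70% of all 19437 probesets (limma with Benjamini-Hochberg adjustment over all of them). Kcnq5 and Kcnj11 were higher in B6, a direction called for 4.70% of all probesets, and Kcnn1 was lower in B6, a direction called for 5.00%. The median difference over the 98 probesets was -0.034, against -0.025 over all, and the median size of a difference 0.10, against 0.081. In 93 of the 98 the difference was smaller than 0.3, and in 86 its 95% interval lay within 0.5 on either side of 0. Leaving out B6 male 67 brought the share of calls near that of all probesets, with 8 of 98 called (8.16%) against 10.3% of all, and added Kcnh1, Kcnj4, Kcnk2, Kcnq3 and Kcnt1, all higher in B6. Without D2 male 78 it was 5 of 98 (5.10%) against 9.08% of all, and Kcnc1 and a second Kcnn1 probeset, both lower in B6, were added. In whole tissue, fewer cells of a type and less RNA in each cell cannot be told apart.

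Kcnq5, a pore subunit of the M-type channels that open near threshold and restrain repetitive firing, gave the largest difference of the gene family, at 1 of its 3 probesets. At probeset 1441071_at the lowest, median and highest values were 7.14, 8.31 and 8.68 in B6 mice, against 4.31, 4.71 and 5.01 in D2 mice. Every B6 mouse was above every D2 mouse, which together with a call was the case for 3.21% of all probesets. The fitted difference was 3.42 (SE 0.16, 95% interval 3.10 to 3.75, adjusted p = 7.52e-13) on the log2 scale. No fold is given, since RMA values carry no background level and whether the D2 values lay above background was not tested. The lowest B6 values were those of male 67 (7.14) and female 64 (7.44), and the difference was 3.52 without female 64 and 3.63 without both arrays. This probeset passed the filter through its B6 values, since its D2 mean of 4.69 lies below the filter value of 6.19, but it was called without any filter too (adjusted p = 3.68e-13).

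The other 2 Kcnq5 probesets did not show this difference. Probeset 1457587_at had 9.07 ± 0.31 in B6, against 9.22 ± 0.18 in D2 (SD, n = 10 each), with a difference of -0.16 (adjusted p = 0.372). Probeset 1427426_at had 8.18 ± 0.35 in B6 and 8.15 ± 0.24 in D2 (SD, n = 10 each), with a difference of 0.024 (adjusted p = 0.929). The strain difference at 1441071_at exceeded that at the other probesets by 3.58 and 3.40 on the log2 scale, both with p = 3e-05 and adjusted p = 4.5e-05 in 2-sided permutation tests of the difference within each array, over 3 pairs in all. These pairs were compared because 1441071_at had been called, so their p-values are no support independent of that call. Without B6 female 64 these values were 3.66 and 3.49 (adjusted permutation p = 6e-05). On the Illumina arrays the Kcnq5 probe had 9.07 ± 0.075 in B6 and 9.04 ± 0.056 in D2 (SD, n = 12 each), a difference of 0.035 with a 95% interval of -0.027 to 0.097 (adjusted p = 0.453), and it was detected on 12 B6 and 10 D2 arrays. Its mean bead signal was 362, against 280 for the Kcna6 probe, which was detected on 3 B6 and 4 D2 arrays. The VST scale is compressed at such low signals, so the narrow interval is not comparable with log2 differences.

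**Figure D1:**
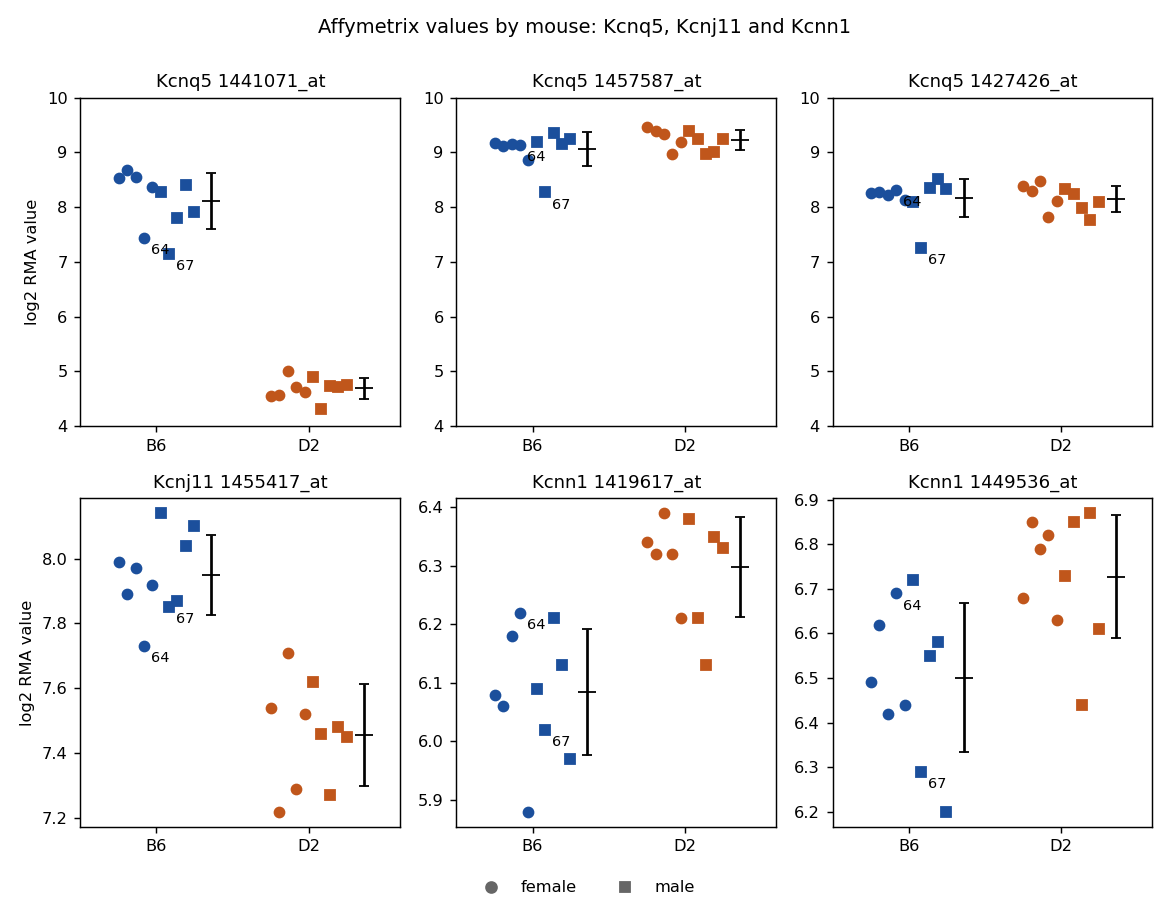
Log2 RMA values of each mouse (circles female, squares male, B6 in blue and D2 in orange, bars mean and SD of 10 mice) at the 3 Kcnq5 probesets, drawn on 1 shared axis, and at Kcnj11 and Kcnn1, each on its own axis. B6 mice lay at 7.14 to 8.68 and D2 mice at 4.31 to 5.01 for Kcnq5 1441071_at, while the strains overlapped at the other 2 Kcnq5 probesets; B6 female 64 and B6 male 67 are numbered.

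Kcnj11 encodes the pore of the ATP-sensitive potassium channel, an inward rectifier that closes when ATP is high. Its values at probeset 1455417_at had a lowest, median and highest of 7.73, 7.95 and 8.14 in B6, against 7.22, 7.47 and 7.71 in D2, so that the strains did not overlap. The difference was 0.49 (SE 0.063, adjusted p = 5.42e-06), a 1.41-fold higher value in B6 (95% interval 1.29 to 1.54). The lowest B6 value, 7.73, was again that of female 64. Medians were 7.92 in B6 females and 8.04 in B6 males, against 7.52 in D2 females and 7.46 in D2 males, and the difference in females alone was 0.44 (adjusted p = 0.0151). A second, dimmer Kcnj11 probeset, 1450515_at, lay below the filter with 6.06 ± 0.22 in B6 and 5.83 ± 0.21 in D2 (SD, n = 10 each, adjusted p = 0.109 without the filter). Kcnj11 had no probe in the Illumina table.

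Kcnn1 encodes a small-conductance calcium-activated (SK) channel subunit, whose channels carry part of the current that follows a spike. At probeset 1419617_at the lowest, median and highest values were 5.88, 6.08 and 6.22 in B6, against 6.13, 6.33 and 6.39 in D2. The B6 values were mostly lower, but the ranges overlapped between 6.13 and 6.22. The difference was -0.21 (SE 0.048, 95% interval -0.31 to -0.11, adjusted p = 0.00299). No ratio is given, since the B6 mean of 6.08 lay below the filter value of 6.19 and signal above background was not tested. The second tested probeset, 1449536_at, had medians of 6.52 in B6 (SD 0.17, n = 10) and 6.76 in D2 (SD 0.14, n = 10), with a difference of -0.23 (adjusted p = 0.0247), and the differences at the 2 probesets did not differ detectably (0.013, permutation p = 0.835). The call at 1419617_at was lost when arrays were quantile normalized again (adjusted p = 0.0108) or set to equal medians (adjusted p = 0.0127), and was absent in females alone (adjusted p = 0.0992) and in males alone (adjusted p = 0.160), and its mean of 6.191 was the lowest of all tested potassium channel probesets.

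On the Illumina arrays 4 of the 61 potassium channel probes (6.56%) were called, against 8.64% of all 14185 probes. Kcnf1, Kcnh1 and Kcnu1 were higher in B6, a direction called for 4.69% of all probes, and Kcnn1 was lower in B6, as were 3.95%. The median difference was -0.016 over the 61 probes and -0.018 over all, and the median size of a difference 0.059, against 0.077. In 54 of the 61 the difference was smaller than 0.3 VST units. Of the 61 probes, 35 were detected on all 24 arrays. Without D2 array 9 the share lay above that of all probes, with 8 of 61 called (13.1%) against 8.83% of all, and with Kcna1, Kcnk2, Kcnv1 and both Kcnc1 probes called and Kcnh1 lost.

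Kcnf1 and Kcnh1 are Kv family members. Kcnf1 encodes an electrically silent subunit that modifies Kv pores of another subfamily, and its VST values had a lowest, median and highest of 11.49, 12.06 and 12.30 in B6, against 11.35, 11.63 and 11.93 in D2. Only the lowest B6 mouse, number 12, lay below the D2 median, although the ranges overlapped. The difference was 0.38 (SE 0.081, adjusted p = 0.00157). Kcnh1, the ether-a-go-go channel pore, had 10.45, 10.86 and 11.06 in B6, against 9.93, 10.25 and 11.01 in D2. The 2 highest D2 values, 10.99 and 11.01, came from the dim arrays 5 and 6. Its difference was 0.45 (SE 0.11, adjusted p = 0.0060), and 0.64 without the 4 dimmest D2 arrays (adjusted p = 2.69e-06). In 14 of the 24 fits that left out 1 array its adjusted p lay between 0.0101 and 0.0121, past the threshold.

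Kcnu1 encodes a channel best known from sperm, where it responds to pH. Its values were 9.36 to 9.71 in B6, with a median of 9.55, against 8.97 to 9.36 in D2, with a median of 9.22. The lowest B6 value, of mouse 5, and the highest D2 value, of mouse 5 of that strain, met at 9.36, and all others were apart. The difference was 0.32 (SE 0.044, adjusted p = 5.20e-06), and the probe was detected on 12 B6 and 11 D2 arrays. On the Affymetrix arrays its probeset had 6.596 ± 0.095 in B6 and 6.507 ± 0.13 in D2 (SD, n = 10 each), a difference of 0.089 (adjusted p = 0.308).

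Kcnn1 was the only potassium channel gene called on both array types, and in both it was lower in B6. Its Illumina values had a lowest, median and highest of 9.21, 9.35 and 9.54 in B6, against 9.43, 9.63 and 10.22 in D2, with a small overlap. The 4 highest D2 values, 9.84 to 10.22, were those of the 4 dimmest arrays. The difference was -0.35 (SE 0.073, adjusted p = 0.00106), and -0.20 without these 4 arrays (adjusted p = 0.000883).

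**Figure D2:**
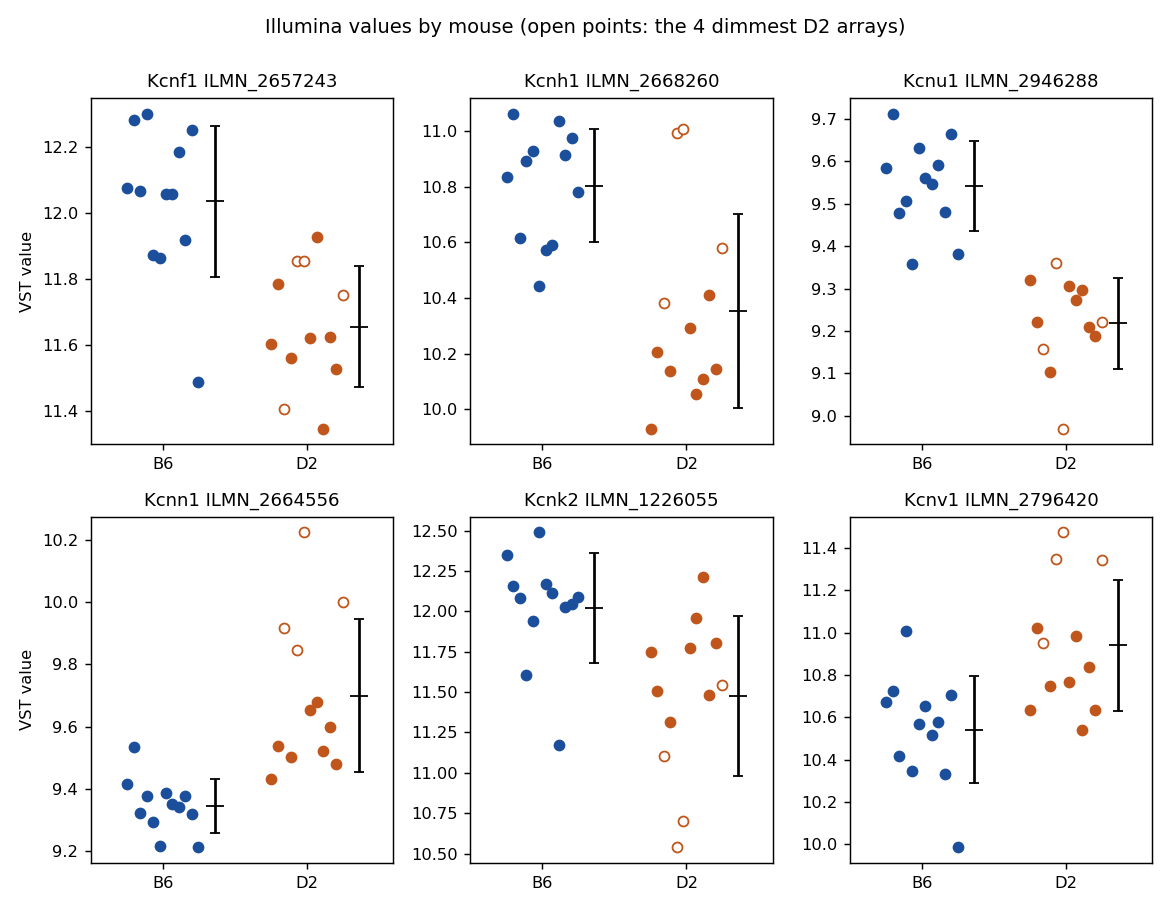
VST values of each mouse (B6 in blue, D2 in orange, bars mean and SD of 12 mice, open points the 4 dimmest D2 arrays) at the 4 called Illumina probes and at those of Kcnk2 and Kcnv1, each on its own axis. For Kcnn1 the open points are the 4 highest D2 values, 9.84 to 10.22, and for Kcnu1 B6 lay at 9.36 to 9.71 and D2 at 8.97 to 9.36.

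The largest positive difference on the Illumina arrays (Kcnk2) and the largest negative differences on the Illumina (Kcnv1) and Affymetrix arrays (Kcnma1) were not called. Kcnk2 encodes a mechanically and lipid-gated leak channel of the 2-pore family. Its leading Illumina probe, ILMN_1226055, had a lowest, median and highest of 11.17, 12.09 and 12.49 in B6, against 10.54, 11.53 and 12.22 in D2. The difference of 0.54 (SE 0.16) did not pass the threshold (adjusted p = 0.0256), and was 0.29 without the 4 dimmest D2 arrays (adjusted p = 0.195). A dimmer Illumina probe of Kcnk2, ILMN_2651369, gave 0.037 (adjusted p = 0.493). On the Affymetrix arrays Kcnk2 had 10.53 ± 0.29 in B6 and 10.24 ± 0.17 in D2 (SD, n = 10 each, difference 0.29, adjusted p = 0.0507), and there the value of B6 male 67, 9.83, was the lowest of all 20. Without that mouse the difference was 0.37 and passed (adjusted p = 0.000944).

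Kcnv1 encodes another silent Kv subunit. Its values were 9.99, 10.57 and 11.01 in B6, against 10.54, 10.89 and 11.47 in D2 (lowest, median and highest). The strains overlapped over much of their range, and the difference was -0.40 (SE 0.11, adjusted p = 0.0143). The highest D2 values, 11.47, 11.35 and 11.34, came from the dim arrays 6, 5 and 12. Its 3 Affymetrix probesets gave 0.25, -0.24 and 0.14, and none passed (adjusted p of 0.369 to 0.655). Kcnma1 encodes the pore of the large-conductance (BK) channel that opens with calcium and voltage. At probeset 1440728_at its values were 6.76, 8.41 and 8.92 in B6, against 8.10, 8.93 and 9.13 in D2, with the lowest from B6 male 70. The difference was -0.50 (SE 0.19, adjusted p = 0.0937), its other 4 tested probesets lay between -0.26 and -0.004, and the Illumina probe gave -0.15 (adjusted p = 0.287).

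Among the Kv pore and silent subunits, 1 of 47 Affymetrix probesets (Kcnq5) and 2 of 24 Illumina probes (Kcnf1 and Kcnh1) were called, against 9.70% and 8.64% of all features. The A-type pore Kcnd2 averaged 9.21 ± 0.21 in B6, against 9.41 ± 0.26 in D2 (SD, n = 10 each) at its leading Affymetrix probeset. The difference was -0.20 with a 95% interval of -0.41 to 0.016, and its other tested probesets gave -0.11 and -0.001. On the Illumina arrays Kcnd2 gave -0.19 (interval -0.40 to 0.013). There the highest D2 values, 11.05, 10.71, 10.62 and 10.54, came from the dim arrays 5, 6, 12 and 3. Kcnd3 and Kcna4, other pores of transient currents, gave -0.11 and -0.068 on the Affymetrix arrays, with intervals that stayed within 0.3 of 0, and Kcna4 gave -0.059 on the Illumina arrays. Kcna2, a delayed rectifier pore of axons, gave -0.15 and 0.15 on the Affymetrix and Illumina arrays, neither past the threshold. Kcnc1 and Kcnc2 encode pores of fast-spiking neurons. Kcnc1 had -0.20 at its leading Affymetrix probeset (adjusted p = 0.0267), and its other tested probesets gave -0.11, -0.035 and -0.083. Its 2 Illumina probes gave -0.12 and -0.22 (adjusted p = 0.0173 and 0.0181), below 0 like the Affymetrix differences but not called. At ILMN_1239595 the highest D2 values, 9.27, 9.24, 9.19 and 9.17, came from the dim arrays 12, 3, 5 and 6. At ILMN_2717814 the highest, 12.14 and 12.06, came from the dim arrays 6 and 3. Kcnc2 had -0.26 with a wide interval of -0.70 to 0.18. Kcnq3, which joins Kcnq5 in M-type channels, had 0.23 on the Affymetrix arrays (adjusted p = 0.0743) and 0.068 on the Illumina arrays (adjusted p = 0.181).

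Kcnh1 was close to the threshold on the Affymetrix arrays and differed between its probesets. At 1418414_at its values were 7.54, 8.30 and 8.59 in B6, against 7.33, 7.80 and 8.33 in D2 (lowest, median and highest), with a difference of 0.47 (SE 0.13, adjusted p = 0.0161). At 1435994_at the difference was -0.24 (adjusted p = 0.211). The Kcnf1 probesets on these arrays gave 0.10 and 0.11 (adjusted p = 0.633 and 0.731).

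The inward rectifiers had 1 call of 9 Affymetrix probesets, Kcnj11, and none of 7 Illumina probes, against 9.70% and 8.64% of all features. Kcnj4, a strong inward rectifier of forebrain neurons, had 9.23 ± 0.33 in B6 against 9.01 ± 0.20 in D2 on the Affymetrix arrays (SD, n = 10 each, difference 0.22, adjusted p = 0.221). Its Illumina probe had 11.24 ± 0.36 in B6 against 10.87 ± 0.40 in D2 (SD, n = 12 each, difference 0.37, adjusted p = 0.0987). The G protein-gated pores Kcnj3 and Kcnj6 gave 0.075 and -0.17 on the Affymetrix arrays and -0.049 and -0.039 on the Illumina arrays, all not called. Kcnj8, an ATP-sensitive pore of blood vessel cells, had a difference of 0.042 with an interval of -0.079 to 0.16. Kcnj2, a further strong inward rectifier, lay below the filter at 3.80 ± 0.17 in B6 and 3.85 ± 0.21 in D2 (SD, n = 10 each). Without the filter 1 more potassium channel probeset was called, Kcnj3 1444336_at, with 3.95 ± 0.12 in B6 and 4.19 ± 0.14 in D2 (SD, n = 10 each, difference -0.24, adjusted p = 0.00656), against 7.18% of all 38870 probesets.

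None of the 6 Affymetrix probesets and 8 Illumina probes of 2-pore channels was called. Outside Kcnk2 their differences lay between -0.19 and 0.10 on the Affymetrix arrays and between -0.11 and 0.098 on the Illumina arrays. In the group of calcium- or sodium-activated channels, formed by gene symbol, 1 of 13 Affymetrix probesets (Kcnn1) and 2 of 5 Illumina probes (Kcnn1 and Kcnu1) were called. The shares of all features called were 9.70% and 8.64%, and 5 probes are too few to be read as a share. Kcnu1 was placed in this group by its symbol, although its channel responds to pH. Kcnt1, a sodium-activated channel, had 0.25 at 1 of 3 Affymetrix probesets (adjusted p = 0.0225) and 0.12 on the Illumina arrays (adjusted p = 0.124). Kcnn3, another SK subunit, lay below the filter at 6.02 ± 0.11 in B6 and 6.03 ± 0.12 in D2 (SD, n = 10 each).

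No auxiliary subunit was called, in 19 Affymetrix probesets and 17 Illumina probes, and all 19 Affymetrix intervals stayed within 0.5 of 0. Kcnab1, a cytoplasmic beta subunit of Kv channels, gave 0.12 on the Affymetrix arrays and 0.19 on the Illumina arrays at its leading probes. Its other Illumina probes gave -0.016 and -0.049. Kcnip1, Kcnip2 and Kcnip4 are calcium-binding partners of the A-type pores. At their leading probes they gave 0.051, -0.047 and -0.18 on the Affymetrix arrays and 0.075, -0.029 and -0.007 on the Illumina arrays. Kcnip3, of the same family, had 0.21 on the Illumina arrays (adjusted p = 0.0126) but -0.086 on the Affymetrix arrays. Kcnmb4, the neuronal beta subunit of BK channels, gave -0.15 and -0.17 on the Affymetrix and Illumina arrays at its leading probes (adjusted p = 0.391 and 0.0822). Its other Illumina probes gave 0.014 (ILMN_2639207, the brightest) and -0.091. The noncoding RNAs that carry Kcn symbols, Kcnq1ot1 and Kcnmb4os2, had 4 probesets with differences of -0.25 to -0.081, none called.

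**Figure D3:**
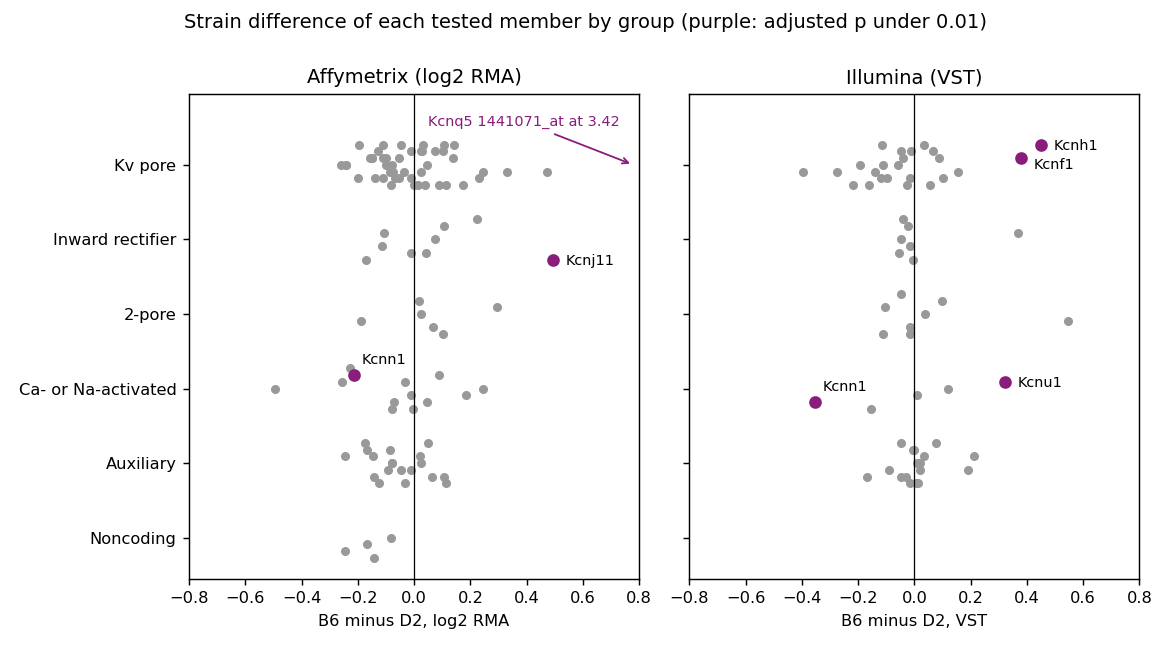
Strain difference (horizontal axis, B6 minus D2) of each of the 98 Affymetrix probesets (left, log2 RMA) and 61 Illumina probes (right, VST), by channel group, with called ones in purple; height within a group has no meaning. Most points lie within 0.3 of 0, and the Kcnq5 probeset at 3.42 is beyond the axis.

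**Figure D4:**
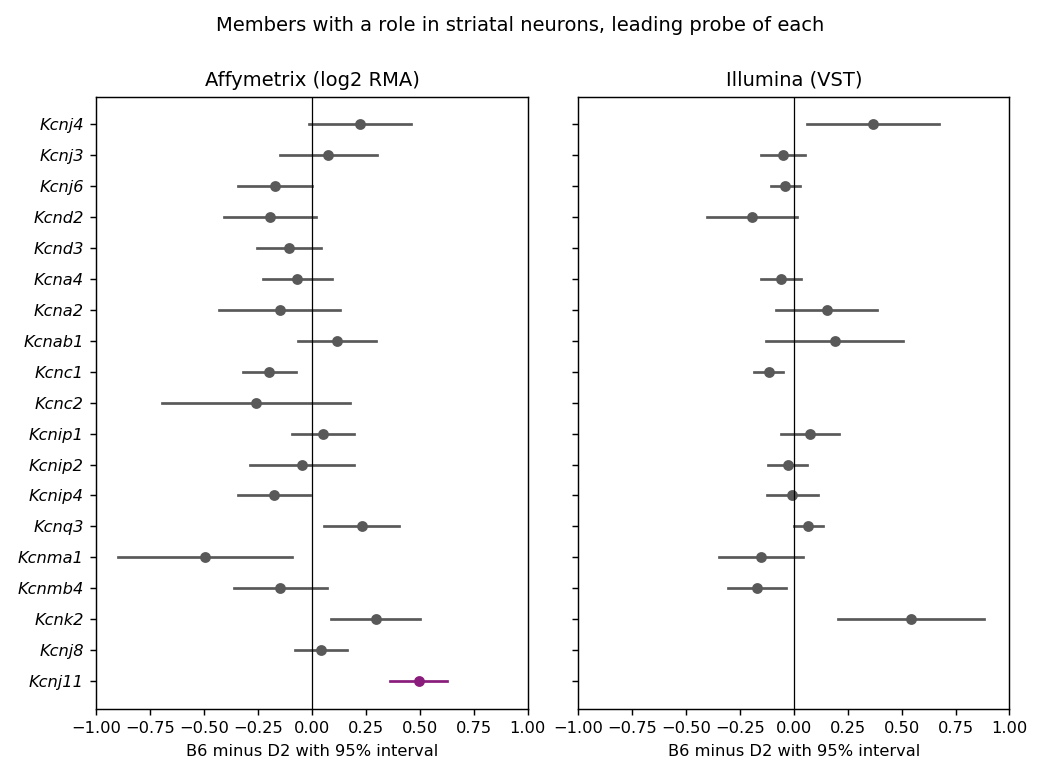
Strain differences (B6 minus D2, with 95% intervals) of channel genes with a role in striatal neurons at the leading probe of each, left on the Affymetrix and right on the Illumina arrays, without Kcnq5. Kcnj11 at 0.49 was the only one of these genes called; a gene without an Illumina point had no probe in that table, and Kcnj2 and Kcnn3, below the Affymetrix filter and without an Illumina probe, are not drawn.

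Partners of potassium channels without a Kcn name gave 1 call on each array type, each gene counted at its leading probe. Counted likewise, of all 7712 genes tested on both array types 390 were called on both. Another 594 were called on the Affymetrix arrays alone and 438 on the Illumina arrays alone. The 14 and 15 partner genes tested are too few to be read as a share. Of 14 partner genes tested on the Affymetrix arrays 1 was called, Abcc8, the sulfonylurea receptor that assembles with the Kcnj11 pore. It was lower in B6, with 6.22 ± 0.14 in B6 and 6.57 ± 0.27 in D2 (SD, n = 10 each). The difference of -0.35 had an adjusted p of 0.00969, close to the threshold of 0.01. The B6 mean was close to the filter value of 6.19. On the Illumina arrays the Abcc8 difference was 0.018 (adjusted p = 0.834). Of 15 partner genes tested on the Illumina arrays 1 was called, Lgi1, a secreted protein that acts on Kv channels of axons, with 11.22 ± 0.12 in B6 and 11.49 ± 0.17 in D2 (SD, n = 12 each, difference -0.26, adjusted p = 0.00184), against -0.071 on the Affymetrix arrays (adjusted p = 0.461). Dpp10, an auxiliary protein of A-type channels, was below 0 on both array types, -0.26 and -0.31, without passing the threshold (adjusted p = 0.0190 and 0.0251).

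Of the 38 potassium channel genes tested on both array types, 28 (73.7%) had differences of the same sign at the leading probe, against 63.2% of all 7712 genes. The 10 others were Kcna2, Kcnab2, Kcnab3, Kcnip3, Kcnj3, Kcnk1, Kcnk3, Kcnk13, Kcnn2 and Kcnv1. Kcnn1 was called on both, Kcnq5 on the Affymetrix arrays, Kcnf1, Kcnh1 and Kcnu1 on the Illumina arrays, and 33 (86.8%) on neither, against 81.6% of all genes. Kcnh1 had nearly the same difference on the log2 RMA and VST scales, 0.47 and 0.45.

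**Figure D5:**
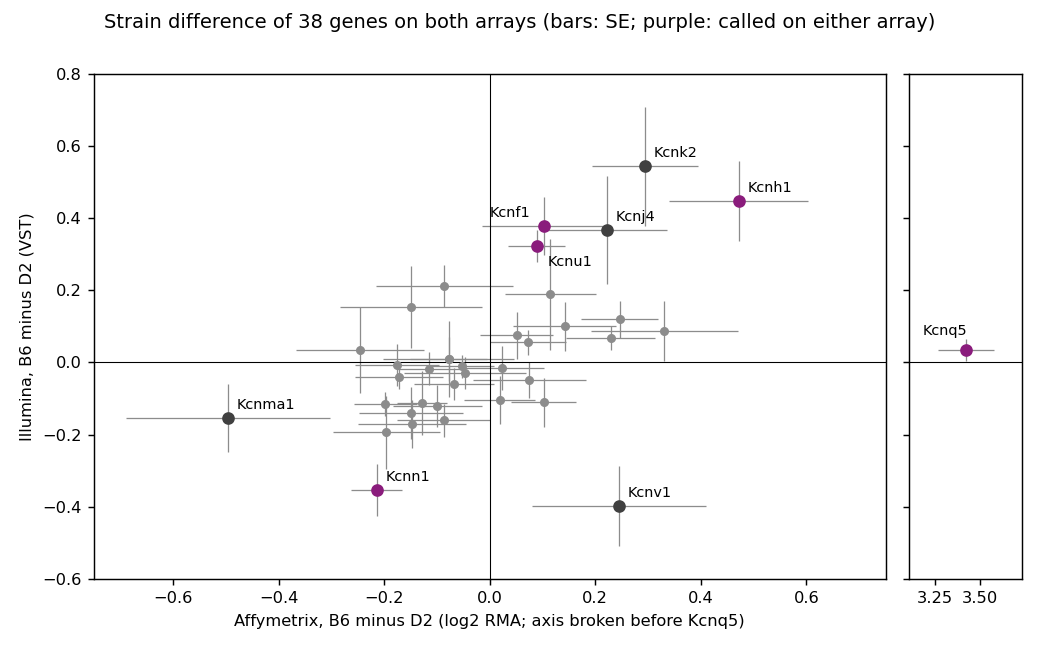
Strain differences (B6 minus D2) of 38 potassium channel genes at the leading probe of each, Affymetrix on the horizontal axis (log2 RMA, broken before Kcnq5 at 3.42) and Illumina on the vertical axis (VST), with SE bars, genes called on either array type in purple and 4 others named in dark grey. Kcnn1 lies at -0.21 and -0.35, Kcnh1 at 0.47 and 0.45, and Kcnq5 at 3.42 and 0.035.

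Sex and the interaction of strain with sex gave no call among the 98 potassium channel probesets. For sex, 0.0257% of all probesets were called, and 3 of the 98 had an unadjusted p under 0.05 (729 of all). For the interaction 0% of all were called, and 2 of the 98 had an unadjusted p under 0.05 (347 of all). The spread between mice of a strain was widest at Kcnc2 (SD 0.51), Kcnv1 1439333_at (0.51), Kcnj3 1444025_at (0.50) and Kcnma1 1440728_at (0.47) on the Affymetrix arrays, and at Kcnk2 (0.43), Kcnab1 (0.40) and Kcnj4 (0.38) on the Illumina arrays.

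Some markers of other cell types were called between strains, each gene counted at its leading probe. Of all 7712 genes tested on both array types, counted in the same way, 390 were called on both. A further 594 were called on the Affymetrix arrays alone and 438 on the Illumina arrays alone. The marker lists are too short to be read as a share. Of the microglial markers 3 of 6 genes were called higher in B6 on the Affymetrix arrays, C1qb (0.89), C1qc (1.12) and Tyrobp (0.33). C1qa (0.10), Csf1r (-0.055) and Cx3cr1 (-0.063) were not called. The list mean was 9.12 to 9.49 in B6 and 8.78 to 9.06 in D2. On the Illumina arrays 4 of 5 genes were higher in B6, C1qa, C1qb, C1qc and Tyrobp (list mean 9.84 to 10.03 in B6 and 9.40 to 9.69 in D2). Cx3cr1 was not called there (0.10, adjusted p = 0.465). Oligodendrocyte markers were higher in B6 at 1 of 6 genes, Mobp, on the Affymetrix arrays (11.4 to 12.1 in B6 and 10.8 to 11.9 in D2) and at 5 of 6 on the Illumina arrays (12.1 to 12.5 in B6 and 11.6 to 12.0 in D2). Among blood vessel markers Pdgfrb was higher in B6 on the Affymetrix arrays, and no marker of astrocytes, interneurons, choroid plexus or the neighbouring cortex and thalamus was called on either array type. The choroid plexus list mean varied widely between mice, at 8.54 ± 1.23 in B6 and 9.09 ± 1.46 in D2 on the Affymetrix arrays (SD, n = 10 each). Their part in the potassium channel differences was not tested.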

How the data were processed

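Striatal RNA was measured on 20 Affymetrix and 24 Illumina arrays, 1 array per mouse. The Affymetrix values are log2 RMA values deposited by the authors, who corrected background, quantile normalized and summarized perfect-match probes after masking those over SNPs or with more than one alignment. The Illumina values are the authors' deposited VST values, close to log2 for bright probes. The methods name robust spline normalization, but the sorted values of all arrays were equal within 0.0019, which quantile normalization gives. The bead signal intensities and the detection p-values deposited by the authors (GenomeStudio) were used for alternatives and for detection at a p under 0.05 against negative control beads. The MAS5 5.0 calls and the removal of Illumina probes over SNPs, both used in the study, were not repeated here.

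Affymetrix probesets were tested when in the upper 50% by mean over the 20 arrays (19437 of 38870 with values, mean of at least 6.19), and all 14185 probes of the Illumina table, which holds probes detected on at least 7 of 24 arrays. Of the 98 potassium channel probesets tested, 5 had 1 strain's mean below the filter value, Kcnq5 1441071_at and Kcnn1 1419617_at among them. Linear models were fitted in limma 3.58.1 (lmFit, eBayes; R 4.3.3), with strain and sex as terms on the Affymetrix arrays and strain alone on the Illumina arrays. A call is an adjusted p under 0.01 (Benjamini-Hochberg over all features). Sex, and strain by sex, were tested likewise. Strain differences of probesets of 1 gene were compared by 2-sided permutation tests (100000 resamples) at an adjusted p under 0.05, for genes with a called probeset. The leading probe of a gene is that with the lowest adjusted p. All p-values set a difference against the spread between mice, and precision is limited by how many arrays there are. No array was a copy of another, with correlations of at most 0.997 (Affymetrix) and 0.995 (Illumina). Which Illumina mice were also sequenced is not given in the sources used here.

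Probe sequences were decoded from the probe identifiers of the Illumina table, whose check digits fit for 14185 of 14185 probes. Chromosomes were taken from RefSeq by gene symbol, and no positions were used. Genes named with values are all called ones and a list with roles in striatal neurons, and values of other members named were chosen after they were seen. The members, gene lists, tests and most alternatives were chosen with earlier results of these data known. The limma strain fits of both array types were checked on simulated data. Alternatives covered filters, normalization, covariates, single sexes, array weights, variance models, thresholds, a replicate block and leaving out arrays.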

Additional observations from a re-analysis of the deposited data

Results flagged for a closer look

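In the 5 mice of 1 strain and sex, 1 Affymetrix value stood far from the other 4 in 7 of 96 groups examined, where chance gives about 1 in 20, by Dixon's test with a critical value of 0.71. Kcnq5 1441071_at had 7.44 in B6 female 64, against 8.36 to 8.68 in the other B6 females. Kcnk2 had 9.83 in B6 male 67, the next being 10.56, and Kcnip1 1416785_at had 8.97 in the same mouse, the next being 8.43. Kcna2 1439872_at had 9.10 and Kcnj4 had 9.07 in B6 female 65, the next being 9.46 and 9.26. Kcnc1 1456944_at had 9.36 in B6 male 68, the next being 9.17, and Kcnf1 1441300_at had 7.59 in D2 female 73, the next being 7.23. Leaving out B6 male 67 turned Kcnk2 into a call (adjusted p = 0.000944), and leaving out female 64 raised the Kcnq5 difference to 3.52.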

How the results depend on the processing

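The calls of Kcnq5 1441071_at (differences of 3.37 to 3.53), Kcnj11 (0.47 to 0.53) and Kcnn1 1419617_at (-0.23 to -0.19) remained when any single Affymetrix array was left out, as did those of Kcnf1, Kcnu1 and Kcnn1 on the Illumina arrays, and no called difference changed direction in any alternative run. The Affymetrix count of 3 calls was 0 among the upper 25% by mean, which none of the 3 probesets reaches, 1 in females alone (Kcnq5, against 3.17% of all probesets called), 5 with array weights (11.9% of all), 7 at an adjusted p under 0.05 (15.4%), 6 without B6 female 64 and B6 male 67 (11.2%, chosen after seeing the data), and 3 to 8 when 1 array was left out. The Illumina count of 4 was 10 at an adjusted p under 0.05 (14.7% of all probes) and 3 to 8 when 1 array was left out, and Kcnf1, Kcnn1 and Kcnu1 were called in each of those 24 fits. Of single-gene values under alternatives, 626 kept their direction and side of the threshold, 17 changed direction without a call, 16 gained a call and 22 lost it. Of the 22 losses, 14 were Kcnh1 on the Illumina arrays when 1 array was left out. The replicate block described below gave further losses, of Kcnf1, Kcnh1 and Kcnn1. Centring log2 bead signals on each array's median moved the median difference of all probes by 0.154, to 0.137, and the same 4 probes were called. Under that centring the uncalled Illumina differences of Kcnd2 (0.024), Kcnip4 (0.087), Kcnj3 (0.047), Kcnma1 (0.12) and Kcnmb4 (0.019) turned above 0. Without the 4 dimmest D2 arrays those of Kcnip1 (-0.026), Kcnip4 (0.024) and Kcnj3 (0.044) changed direction, as did Kcnj3 with array weights (0.0074). On the Affymetrix arrays Kcna4 (0.002), Kcnip1 (-0.018) and Kcnj8 (-0.096) did so in females alone, and Kcnip1 (-0.021) and Kcnip2 (0.0063) without B6 female 64 and B6 male 67. When 1 array was left out, Kcnip1 reached -0.0076 and Kcnip2 0.033 on the Affymetrix arrays and Kcnip4 0.020 on the Illumina arrays. The cause was not tested. When all genes with several tested probes were compared, an alternative chosen after seeing the data, 5 of 45 Affymetrix pairs and 0 of 14 Illumina pairs differed: the 2 Kcnq5 pairs, and 1 pair each of Kcnh1 (by 0.71), Kcnv1 (0.49) and Kcnt1 (0.20), the last 3 at an adjusted permutation p of 0.00189, while the lowest Illumina value was Kcnk2 (0.0766). With the highest-mean probe of each gene, 27 of 38 genes had the same sign on both array types and none was called on both.

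The replicate numbers 1 to 12 of the Illumina labels do not state a pairing, and mice with the same number deviated together (correlation over 0.1) in 3 of 12 pairs, from -0.424 to 0.278. With the replicate number as a block, 1 probe was called, Kcnu1, and Kcnf1, Kcnh1 and Kcnn1 had adjusted p of 0.0158, 0.0268 and 0.0146. Signal over background limits the dim probes: 26 of 61 Illumina probes were not detected on every array.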
